A study of Homo sapiens with 3 samples.

Results

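The EGF receptor family and its ligands were examined in PANC-1 cells, an established human pancreatic ductal carcinoma line, that had been treated with cantharidin, okadaic acid or neither. The 10 genes were chosen by name, with earlier results of these data known: the receptors EGFR, ERBB2 and ERBB3, and the ligands EGF, AREG, EREG, HBEGF, TGFA, BTC and NRG1. They are 10 of the 19699 genes that could be named on the arrays, and 17 probes measured them. Both compounds inhibit protein phosphatase 2A (PP2A), which takes phosphate groups off many signalling kinases, and the study asked which angiogenesis-related transcripts they alter. There were 3 arrays of total RNA, 1 for each group. The control cells are labelled as having received none of the compounds, and the labels used here state no vehicle for them. Cantharidin was given at 20 µM for 24 h, and the okadaic acid sample carries the same dose and time in its labels. All 3 groups share the single cell line and a culture medium with fetal calf serum.

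The EGF receptor and its relatives are receptor tyrosine kinases on the surface of epithelial cells. A ligand brings a pair of receptors together, the kinases phosphorylate each other's tails, and adaptor proteins then carry the signal to the ERK and PI3K pathways. ERBB2 has no known ligand of its own and serves as a partner, whereas ERBB3 binds neuregulins and has little kinase activity. Most ligands are made as membrane precursors that ADAM proteases cut free. In pancreatic ductal carcinoma this family is known as a source of growth signals.

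Since each group had 1 array, differences carry no replicate check, no test was possible, and the spread between cultures was not measured. Values are spot intensities in arbitrary units. Differences are on the log2 scale, taken once the arrays had been brought to a common 75th percentile. A difference of at least 1.5-fold is called higher or lower. The only error available is spot noise, the SD between repeated spots of probes of like brightness, combined over the pair of arrays compared and written after ±. It covers the array alone. The arrays came from 1 slide and 1 scan, so slide position and group cannot be told apart. Of 34041 probes, 67.8% to 73.7% were well above background on each array. The keratins and EPCAM, which mark epithelium, were well above background on every array, from 342 for EPCAM under cantharidin to 193320 for KRT18 under okadaic acid. So was VIM, a mesenchymal gene, at up to 311685. Of the leukocyte markers 4 of 4 genes were as well, between 147 and 11000 units. By their brightest probes the corresponding counts were 2 of 3 for endothelium and 2 of the 3 acinar genes that had a probe. PECAM1 passed by 1 of its dimmer probes in control cells. For fibroblasts they were 2 of 4 in control cells and 1 of 4 under each agent, with COL1A2 and LUM dim (not well above background) on every array. Several markers moved with the agents. Under cantharidin EPCAM was 3.42-fold and KRT8 2.25-fold lower, KRT18 was 1.99-fold higher, and COL1A1 was at least 21.9-fold lower. Under okadaic acid KRT19, KRT18 and CD14 were 2.59-fold, 2.29-fold and 3.65-fold higher. EPCAM was 2.20-fold and COL1A1 at least 10.9-fold lower there. Of 6 genes, the keratins, EPCAM and VIM, 1 was higher and 2 lower with cantharidin, beside 27.5% and 34.1% of all genes. With okadaic acid 2 were higher and 3 lower, beside 28.1% and 28.8%. Their part in the results was not tested. In RNA from bulk cells, fewer cells of a type and less RNA per cell cannot be told apart.

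Cantharidin went with higher HBEGF, NRG1 and AREG and with lower ERBB2, ERBB3, EGFR, EREG and BTC. Of the 10 genes, each taken by its brightest probe, 3 were higher and 5 lower than in control cells. Over all 16644 genes compared, 27.5% were higher and 34.1% lower. The median difference was -0.58 for the 10 genes and -0.16 for all genes. All 3 receptors were on the lower side, ERBB3 by 1 of its 2 compared probes. The 7 ligands divided into 3 higher, 2 lower and 2 within 1.5-fold.

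Okadaic acid went with higher NRG1, HBEGF, AREG and EGFR and with lower ERBB2, ERBB3 and BTC, each by its brightest probe. EGFR was higher by that probe alone, with 0.19 by the full-length probe and -0.58 by the third. ERBB3 was lower by 1 of its 2 compared probes. By the brightest probes 4 genes were higher and 3 lower of 10, beside 28.1% higher and 28.8% lower of the 16166 genes compared. BTC was dim under okadaic acid and its bound was 1.15-fold, short of the threshold. With dim signals set to the floor 2 genes were lower, beside 27.1% of all genes. The median difference was 0.20 for the 10 genes and 0.01 for all genes. Both comparisons use the same control array, so their values are set side by side and their likeness is not measured.

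**Figure D1:**
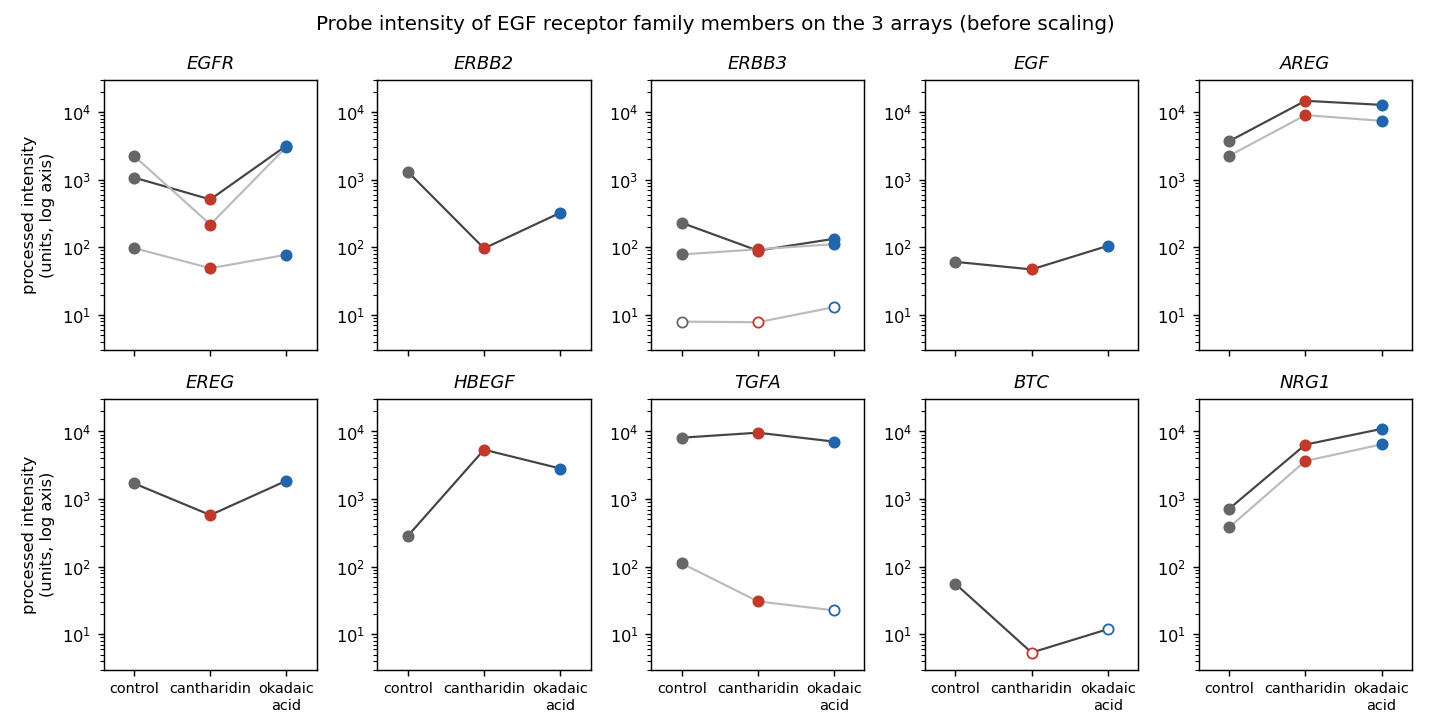
Processed intensity of every probe of the 10 genes on each of the 3 arrays, with a log axis and before scaling between arrays. Each line joins the values of 1 probe, the dark line marks the brightest probe of the gene, and open circles mark values not well above background. HBEGF, AREG and NRG1 lie higher on both treated arrays than on the control array, and ERBB2 lies lower on both.

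HBEGF, a membrane-anchored ligand of EGFR and ERBB4, had the largest difference of the family. Its intensity was 287 in control cells, 5381 under cantharidin and 2836 under okadaic acid. The signal exceeded control 20.7-fold with cantharidin (4.37 ± 0.13) and 8.29-fold with okadaic acid (3.05 ± 0.15). Both treated arrays were thus far above the control array, and the cantharidin array was the higher one. Set directly against each other, okadaic acid cells had 2.49-fold less HBEGF signal than cantharidin cells (-1.32 ± 0.14).

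NRG1 encodes neuregulins, the ligands of ERBB3 and ERBB4. Its brighter probe read 722 in control cells, 6400.4 under cantharidin and 10916 under okadaic acid. The second probe of the gene read 384, 3663 and 6448 in the same order. Both probes placed the treated arrays well above control. The brighter probe stood above control by 9.76-fold in cantharidin cells (3.29 ± 0.11) and by 12.7-fold in okadaic acid cells (3.66 ± 0.09), and the other gave 10.5-fold and 14.1-fold. The difference between the agents was 0.38 ± 0.11 by the brighter probe, within 1.5-fold, and reached 0.77 where the arrays were not scaled.

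AREG, amphiregulin, is a ligand that binds EGFR alone. Its brighter probe gave intensities of 3702 in control cells, 14645 under cantharidin and 12745 under okadaic acid. The second probe gave 2253, 8993 and 7404. Each treated array was above the control array by both probes, with the cantharidin array highest. The brighter probe exceeded control by 4.35-fold with cantharidin (2.12 ± 0.09) and by 2.88-fold with okadaic acid (1.53 ± 0.08), and the second probe 4.39-fold and 2.75-fold. Okadaic acid cells were 1.51-fold below cantharidin cells (-0.59 ± 0.10), just past the threshold, and this call was lost in 4 of 11 alternative settings. A near-identical copy of AREG was listed as AREGB in older annotations, so signal from such a copy could have been counted with AREG.

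EREG, epiregulin, binds EGFR and ERBB4. Its intensities were 1706 in control cells, 581 under cantharidin and 1871 under okadaic acid. The cantharidin array stood below the others, which lay close together. EREG was 2.67-fold lower under cantharidin (-1.42 ± 0.11), while okadaic acid cells differed from control by -0.12 ± 0.08. The direct difference between the agents was 2.45-fold, with okadaic acid cells higher (1.29 ± 0.11).

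AREG and EREG are neighbours on chromosome 4. In the order of coding genes EPGN, EREG, AREG and BTC follow each other there, ahead of PARM1. EPGN, which encodes epigen, was dim throughout. Under cantharidin the adjacent pair lay on opposite sides of control, with AREG higher and EREG and BTC lower. The start-site windows of AREG and EREG are therefore shown with that of HBEGF, the gene with the largest difference. Each window runs from 250 bases before to 50 bases after the start site, is printed 5′ to 3′ along the strand of the gene, and comes from RefSeq on GRCh38.p14. The arrays were annotated on hg19, and only names were carried between the builds. Capitals mark matches on either strand to the GC box GGGCGG, the AP-1 motif TGANTCA or the cyclic AMP response element TGACGTCA, and adjacent matches run together.
AREG, chr4:74444886-74445185, plus strand: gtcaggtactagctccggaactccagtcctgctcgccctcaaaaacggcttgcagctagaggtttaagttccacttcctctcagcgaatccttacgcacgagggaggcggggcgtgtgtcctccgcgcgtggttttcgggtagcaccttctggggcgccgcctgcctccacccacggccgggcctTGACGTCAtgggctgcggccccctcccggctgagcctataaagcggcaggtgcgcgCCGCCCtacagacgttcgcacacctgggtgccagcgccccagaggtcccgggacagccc
EREG, chr4:74364895-74365194, plus strand: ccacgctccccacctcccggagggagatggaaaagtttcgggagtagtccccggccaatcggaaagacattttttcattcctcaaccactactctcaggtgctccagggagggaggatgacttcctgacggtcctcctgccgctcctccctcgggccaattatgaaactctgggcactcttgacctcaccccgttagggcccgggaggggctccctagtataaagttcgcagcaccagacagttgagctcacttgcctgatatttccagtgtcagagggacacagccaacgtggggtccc
HBEGF, chr5:140346554-140346853, minus strand: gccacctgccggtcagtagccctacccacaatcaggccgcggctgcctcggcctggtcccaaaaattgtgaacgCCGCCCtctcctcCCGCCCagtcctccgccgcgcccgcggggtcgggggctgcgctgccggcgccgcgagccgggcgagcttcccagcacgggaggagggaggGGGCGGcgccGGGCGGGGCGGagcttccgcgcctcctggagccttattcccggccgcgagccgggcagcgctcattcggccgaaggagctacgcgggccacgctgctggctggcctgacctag

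The AREG window held 1 cyclic AMP response element and 1 GC box, the HBEGF window held 5 GC boxes, and the EREG window held none of the motifs. RefSeq windows were matched for 8 of the 10 genes and gave 10 windows, since EGFR and TGFA have 2 each. ERBB3 had no window, and NRG1 was left out of the search. A GC box was found in 5 of these windows, an AP-1 motif in 3 and a cyclic AMP response element in 1. The AP-1 matches lay in the windows of EGF and ERBB2 and in an EGFR window. Over 35116 windows of the same length, the shares were 45.0% for the GC box, 7.71% for AP-1 and 1.85% for the cyclic AMP response element. A match describes letters in the window and does not show a bound factor.

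TGFA, transforming growth factor alpha, is a ligand of EGFR made by many carcinomas. Its brighter probe read 8099 in control cells, 9600.5 under cantharidin and 7092 under okadaic acid. The arrays lay within 1.5-fold of control by this probe, at 0.38 ± 0.10 and -0.45 ± 0.08, and okadaic acid was 1.78-fold below cantharidin. A dimmer probe read 112, 30.7 and 22.6, the last not well above background. By that probe TGFA was 3.32-fold lower in cantharidin cells (-1.73 ± 0.49), and okadaic acid cells were below control by a factor of at least 2.31. The probes disagree in direction for cantharidin, and the median over both was -0.67.

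EGF, the ligand that gave the family its name, was measured close to background on each array. Its intensities were 60.8 in control cells, 47.0 under cantharidin and 105 under okadaic acid. Relative to the dimmest detected signal of the same array, these were 1.74, 2.15 and 1.80 times as bright. The differences from control were within 1.5-fold, at -0.23 ± 0.40 under cantharidin and 0.53 ± 0.33 under okadaic acid, but the latter passed the threshold in 2 of 11 alternatives, at 0.61 and 0.78. Okadaic acid cells read 1.70-fold above cantharidin cells (0.76 ± 0.37), and 3 of 11 alternatives brought this within the threshold.

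BTC, betacellulin, a ligand of EGFR and ERBB4, was well above background only in control cells. Its intensity was 55.8 there, against 5.38 under cantharidin and 11.9 under okadaic acid. Against the dimmest detected signal of each treated array, BTC was at least 2.32-fold lower with cantharidin. With okadaic acid the bound was at least 1.15-fold lower. The measured differences were -3.24 and -2.48, but the treated signals have no order between them. The call for okadaic acid is lost when the dim signal is set to its bound.

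**Figure D2:**
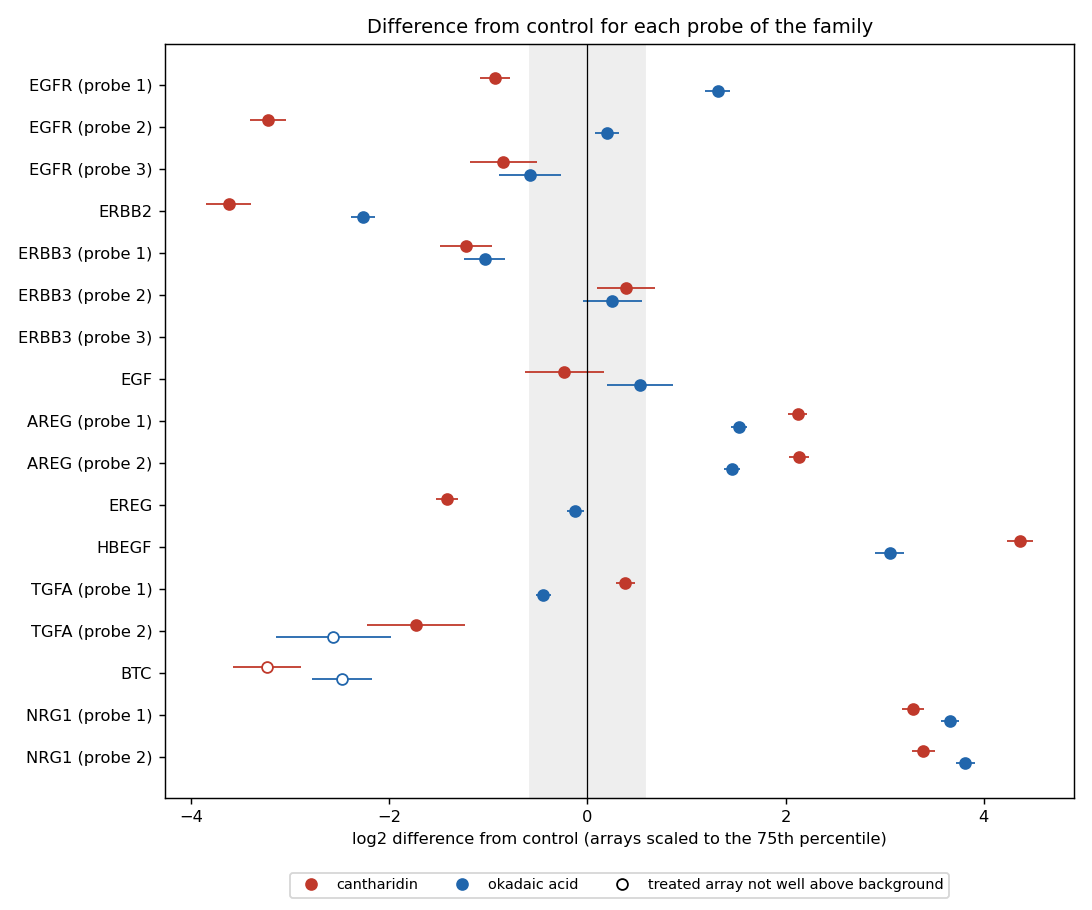
Log2 difference from control for every probe of the 10 genes, after scaling to the 75th percentile, with probes of a gene numbered by brightness. Points are single differences between 1 treated and 1 control array, bars are ± 1 SD of spot noise, the grey band is within 1.5-fold, and open circles mark treated arrays not well above background. HBEGF reaches 4.37 under cantharidin and ERBB2 reaches -3.62, while the EGFR probes spread from -3.23 to 1.32. The dimmest ERBB3 probe was dim on every array and has no point.

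EGFR, the receptor for most of these ligands, was measured by 3 probes that name different transcripts. Whether a probe measures only the transcript it names was not tested. The probe for the full-length receptor (NM_005228) had 10 spots on each array, of which 1 under cantharidin carried an outlier flag and was left out. Its spots averaged 2235 ± 57.8 (SD over 10 spots) in control cells, 217 ± 9.07 (SD over 9 spots) under cantharidin and 3054 ± 169 (SD over 10 spots) under okadaic acid. Before scaling, the spots spanned 2141 to 2321 on the control array, 202 to 232 on the cantharidin array and 2753 to 3391 on the okadaic acid array. After scaling, the ranges of the control and okadaic acid spots overlapped. The signal of the full-length probe was thus 9.36-fold lower under cantharidin, a log2 difference of -3.23 that ran from -3.36 to -3.09 over single spots. Under okadaic acid it was within 1.5-fold of control, at 0.19 with a spot range of 0.08 to 0.31.

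The brightest EGFR probe by mean log2 signal names a shorter transcript (NM_201283), which lacks the kinase domain, and had 1 spot. It read 1072 in control cells, 509 under cantharidin and 3188 under okadaic acid. It was 1.91-fold lower with cantharidin (-0.94 ± 0.15) and 2.49-fold higher with okadaic acid (1.32 ± 0.13). The arrays thus stood on opposite sides of control by this probe. The third probe, which names another short transcript (NM_201282), read 97.2, 48.9 and 77.6. Its differences were -0.85 ± 0.34 and -0.58 ± 0.32, and the cantharidin call was lost with another background correction, where it was -0.38. All 3 probes were lower under cantharidin. Between the agents, the first and second probes were 10.7-fold and 4.77-fold higher under okadaic acid, and the third differed by 0.27 ± 0.37, within 1.5-fold. Under okadaic acid against control the probes differed, and the call of EGFR as higher rests on the brightest probe, with a median over the probes of 0.19.

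ERBB2 encodes the receptor also called HER2. Its probe had 10 spots, which averaged 1305 ± 70.7 (SD over 10 spots) in control cells, 96.5 ± 8.27 under cantharidin and 324 ± 20.6 under okadaic acid. Before scaling, these spots spanned 1199 to 1458 on the control array, 84.4 to 112 on the cantharidin array and 297 to 371 on the okadaic acid array. ERBB2 was 12.3-fold lower under cantharidin (-3.62, and -3.86 to -3.34 over single spots). It was 4.81-fold lower under okadaic acid (-2.27, and -2.37 to -1.95 over single spots). Of the receptors it had the largest difference under both agents by the brightest probe of each gene. Okadaic acid cells were 2.56-fold above cantharidin cells (1.36, with an SD of 0.12 over 10 spots). With the normexp background correction the cantharidin difference was 6.85-fold, -2.78 on the log2 scale.

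**Figure D3:**
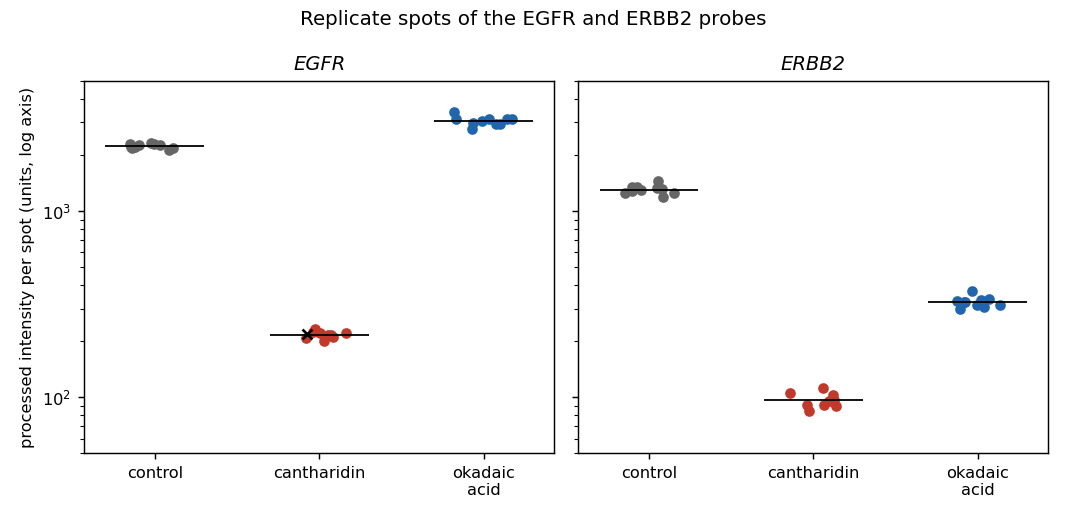
Processed intensity of each replicate spot of the full-length EGFR probe and the ERBB2 probe on the 3 arrays, on a log axis before scaling. Lines are means over spots, and a cross marks the spot left out for its outlier flag. The spots share 1 RNA sample per array, so their spread is that of the array only. The cantharidin spots lie lowest for both genes, and for EGFR the okadaic acid spots lie above the control spots.

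ERBB3, the neuregulin receptor that pairs with ERBB2, had 3 probes. The brightest probe (NM_001982) read 229.6 in control cells, 89.1 under cantharidin and 133 under okadaic acid. It lay below control by 2.34-fold with cantharidin (-1.23 ± 0.26) and by 2.06-fold with okadaic acid (-1.04 ± 0.21). A probe that names a short transcript (NM_001005915) read 78.2, 93.3 and 111, within 1.5-fold of control for both agents. The remaining probe stayed at 13.0 or below and was dim throughout. The lower call therefore rests on a single probe, since the median over the detected probes was -0.42 under cantharidin and -0.39 under okadaic acid. The agents differed from each other by 0.19 ± 0.28.

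The agents were also set directly against each other. Of the 9 genes compared, EGF, EGFR, ERBB2 and EREG were higher under okadaic acid, and AREG, HBEGF and TGFA were lower. Over the 16200 genes compared, 29.5% were higher and 22.3% lower, and the median difference was 0.13 for all genes and 0.38 for the family. ERBB3 and NRG1 were within 1.5-fold, and BTC was not well above background on either treated array and was not compared. The number of lower genes depended on the setting: HBEGF was the 1 gene left without scaling, beside 13.9% of all genes. It was also the 1 gene left at a 2-fold threshold, beside 13.6%.

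Counted by probe instead of by gene, 16 of the 17 probes were compared with control under each agent. Under cantharidin 5 were higher and 8 lower, beside 26.4% and 33.0% of all probes. Under okadaic acid 6 were higher and 4 lower, beside 26.5% and 27.7%. Between the agents 15 probes were compared, with 5 higher and 5 lower under okadaic acid, beside 28.0% and 22.5% of all probes. The probes of AREG and of NRG1 gave nearly the same differences. Those of EGFR, ERBB3 and TGFA did not.

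The rest of the family gave low signals. ERBB4, the fourth receptor, read 106 in control cells, 82.5 under cantharidin and 149 under okadaic acid, within 1.5-fold of control for both agents. NRG2 read 169, 116 and 235, and NRG4 read 79.0, 48.1 and 85.8, also within 1.5-fold of control. NRG3 was well above background only in control cells, at 68.2. Its signal with cantharidin was at least 2.83-fold lower, and with okadaic acid at least 1.40-fold lower. These are neuregulin genes, whose products bind ERBB3 or ERBB4.

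Proteins that free the ligands from the membrane were counted in a list of 6 genes. Under cantharidin 3 were higher, namely ADAM17, RHBDF1 and RHBDF2, and 1 was lower, ADAM9, beside 27.5% and 34.1% of all genes. Under okadaic acid ADAM17 and ADAM10 were higher and ADAM9 lower, beside 28.1% and 28.8%. The median of the list was 0.64 for cantharidin and 0.27 for okadaic acid. ADAM17, the main protease that releases AREG, HBEGF and TGFA, read 212 in control cells, 635 under cantharidin and 397 under okadaic acid, for differences of 1.72 and 0.65. Its okadaic acid value lay between 0.39 and 0.91 over the settings, and that call was lost with the normexp background correction and with some scalings. RHBDF1 and RHBDF2 carry ADAM17 through the secretory route and were named after their values were seen. They differed from control by 1.55 and 1.12 under cantharidin and by 0.36 and 0.19 under okadaic acid. ADAM9, another membrane protease, read 193, 53.9 and 92.2, for differences of -1.70 and -1.32. The 2 probes of ADAM10, also named after its values were seen, gave 1.06 and 0.30 under okadaic acid and 0.17 and -1.12 under cantharidin.

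Adaptors and first effectors act just downstream of the phosphorylated receptor tails. Of the 14 genes listed, 12 were compared, and GAB1 and PIK3R1 were dim on all arrays. Under cantharidin CRK, EPS8 and SOS2 were higher and PIK3CA, PIK3R2, PLCG1 and SHC1 lower, which is 3 and 4 genes beside 27.5% and 34.1% of all genes. With normexp 2 were higher and 2 lower, beside 22.7% and 26.0% of all genes in that setting. At a 2-fold threshold the counts were 2 and 0, beside 20.1% and 22.3%. Under okadaic acid none was higher, and PLCG1 and SHC1 were lower, with the other 10 within 1.5-fold, beside 28.1% and 28.8% of all genes. The number lower was 4 with median scaling, 3 with the median over probes and 1 with normexp. In the same settings 32.4%, 28.9% and 24.4% of all genes were lower. STAT3 was within 1.5-fold by its brightest probe, at 0.07 for cantharidin and -0.44 for okadaic acid. Its second probe, with 10 spots, gave 0.05 and -1.78, so by that probe STAT3 was lower under okadaic acid. The list had a median of -0.01 for cantharidin and -0.41 for okadaic acid. SHC1, which links active receptors to GRB2 and RAS, read 24051 in control cells, 12886 under cantharidin and 9724 under okadaic acid, for differences of -0.76 and -1.56. A second SHC1 probe gave -0.46 and -0.88. PLCG1, a phospholipase recruited to EGFR, read 86.2, 43.8 and 65.0, differed from control by -0.84 under cantharidin and by -0.66 under okadaic acid, where it was dim. Other settings took these differences to -0.36 and -0.37, and both calls were lost there.

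Inhibitors of the receptors and proteins of their removal made up a list of 13 genes, all of them compared. Under cantharidin CBL, CBLB, HGS and SOCS4 were higher and LRIG1, LRIG3, SOCS5 and STUB1 lower, with a median difference of 0.33. These are 4 and 4 of 13, beside 27.5% and 34.1% of all genes. Under okadaic acid 8 were higher and 2 lower, beside 28.1% and 28.8%, with a median of 0.86. The 8 genes were CBL, CBLB, HGS, LRIG1, LRIG2, PTPN1, RNF41 and SOCS4, and the 2 lower ones were LRIG3 and STUB1.

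CBLB, a ubiquitin ligase that marks active receptors, read 113 in control cells, 556 under cantharidin and 1120 under okadaic acid, for differences of 2.44 and 3.06. Over the settings these went down to 1.51 and 2.13, and a second CBLB probe gave 0.27 and 0.85. SOCS4, which promotes EGFR breakdown, read 278, 1256 and 3071, for differences of 2.32 and 3.21. HGS, which sorts internalised receptors towards lysosomes, read 12092, 67407 and 45608, or 2.62 and 1.66. On the lower side, STUB1, a chaperone-linked ubiquitin ligase of ERBB2, read 12444, 3339 and 5519, for differences of -1.76 and -1.43. LRIG3, a transmembrane protein of the LRIG group, read 736, 86.9 and 299, or -2.94 and -1.55.

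**Figure D4:**
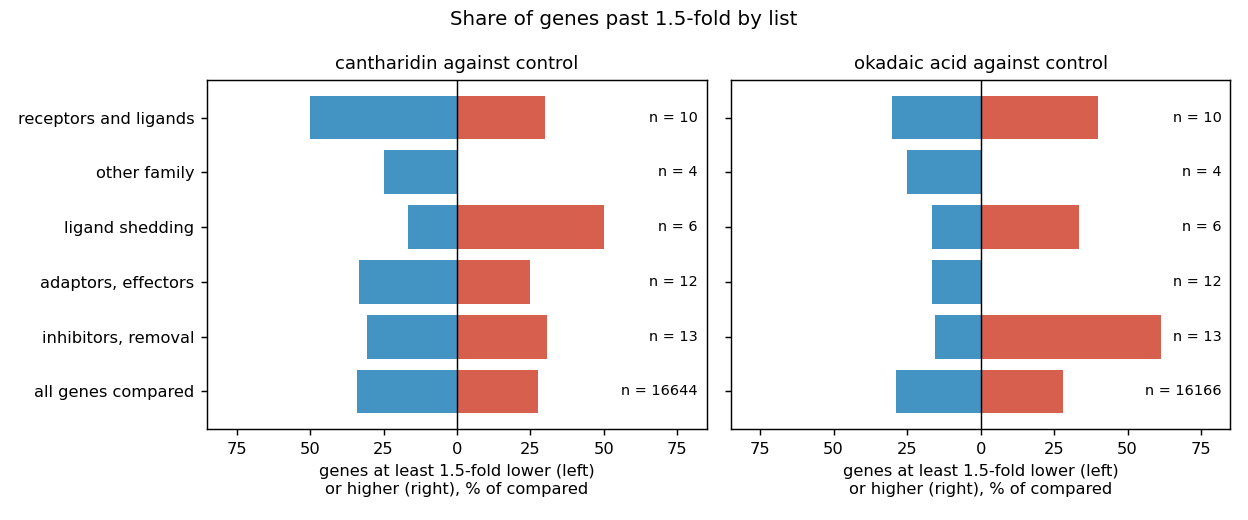
Share of genes at least 1.5-fold lower (left of the centre line) or higher (right) than control under each agent, in percent of the genes compared, whose number stands at the right as n. The lists are the 10 receptors and ligands, other family genes, ligand shedding, adaptors and effectors, inhibitors and removal, and all genes compared. Among inhibitors and removal genes 8 of 13 were higher under okadaic acid, and among adaptors 0 of 12.

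The genes nearest to EGFR and HBEGF in pattern were found by the distance between their pairs of log2 differences from control, over 14213 genes measured on all 3 arrays. By its brightest probe EGFR lay nearest to DYRK2, ZGPAT and CREG1, at distances of 0.06, 0.09 and 0.09. HBEGF lay nearest to SLC45A4, PRDM12 and BATF2, at 0.18, 0.23 and 0.31. These distances describe 3 arrays and carry no measure of error between cultures.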

How the data were processed

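Gene expression was measured on 3 Agilent 1-colour arrays, grouped by sample title. The authors deposited spot intensity values of each array from Feature Extraction 11.0.1.1, and per the file headers these had background subtracted and hg19 annotation. They also deposited a normalized log2 table of 30923 probes, made in a way not stated in the sources used here. Its columns correlated with their own arrays at r of 0.998 to 0.999 and with others at most at 0.937, and it was used as an alternative.

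Here spots flagged as outliers were dropped, log2 intensity was averaged per probe (34041 of 34127 transcript probes kept) and the 75th percentile of each array was subtracted (784 on the control, 713 on the cantharidin and 936 on the okadaic acid array). A probe was compared if either array had it well above background, and called at 1.5-fold, the threshold of the study. Dim signals give bounds from the lowest signal well above background (35.0, 21.9 and 58.0 intensity units). Saturated spots numbered 0. Accessions without version were matched to RefSeq transcripts, which named 25705 probes. The brightest probe by mean log2 signal represents a gene. Spot noise came from 999 probes with 10 spots, taking the 50 nearest in brightness.

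The 10 genes and the lists were chosen with earlier results of these data known. All 10 genes and other family genes are named. Of the further lists the rule names at most 5 genes past 1.5-fold under both agents, by the smaller difference. The text also names genes of these lists outside that rule, with their values and calls known. Nearest patterns were taken for EGFR and for the gene with the largest difference. The calling step was run on simulated data with large changes planted in brighter probes only. That run checks the code and does not show how reliable calls are for dim probes or small differences. Alternatives were normexp (offset 50) on median spot signals, since mean signals were not used here, 4 other scalings, 2 other filters, the deposited table, a 2-fold threshold, the median over probes, and dim signals at the floor. The number of arrays limits precision. The analysis used Python 3.11.15, numpy 2.4.6, pandas 2.3.3, matplotlib 3.10.9, R 4.3.3 and limma 3.58.1.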

Additional observations from a re-analysis of the deposited data

Results flagged for a closer look

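The brightest EGFR probe, which names a short transcript, lay on opposite sides of control under the agents. It stood at -0.94 for cantharidin and 1.32 for okadaic acid on the log2 scale, or 2.25 between the treated arrays. Over 8 settings of background correction, scaling and values the cantharidin difference ran from -1.07 to -0.83 and the difference between the agents from 2.09 to 2.65. The full-length EGFR probe did not show this, at -3.23 and 0.19. LRIG1, which restrains EGFR, also lay on opposite sides, at -0.70 under cantharidin and 1.33 under okadaic acid. Its cantharidin difference ran from -0.84 to -0.58, and the call was lost with normexp and at a 2-fold threshold. With 1 array per group the difference between the agents was not tested for either gene.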

How the results depend on the processing

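Of the counts of genes past the threshold, 70 stayed within 1.5 times their main value and 2 did not. The number of genes lower under okadaic acid than under cantharidin was 3, beside 22.3% of all genes. It fell to 1 without scaling, beside 13.9%, and to 1 at a 2-fold threshold, beside 13.6%. Among single differences of the 10 genes, 284 stayed the same or moved by less than spot noise and 62 moved by more. These cover 11 alternatives and 1 more that was chosen after the data were seen. The 2-fold threshold and the 2 other filters leave each difference as it was, so they add to the 284 by design. Dim signals at the floor could move only BTC, the added alternative only EGFR, and the median over probes only genes with several probes. No called difference changed sign. The added alternative took EGFR by its full-length probe, which left 3 genes higher under okadaic acid in place of 4. Against control, HBEGF, NRG1, AREG and ERBB2 kept their calls in 11 of 11 alternatives for both agents, as did EREG for cantharidin. These genes were well above background on all arrays, so the filters and the floor could not change their calls. The median over probes brought ERBB3 within 1.5-fold for both agents and TGFA past it, to -0.67 and -1.51. The median difference of all genes moved with the scaling, to -0.30 for cantharidin and 0.26 for okadaic acid without scaling, and to -0.11 for okadaic acid with median scaling. Between the agents it was 0.13, or 0.52 without scaling, where 47.1% of genes were higher and 13.9% lower in place of 29.5% and 22.3%. For okadaic acid against control the split without scaling was 36.6% and 22.4%. No paired analysis was possible because each group has 1 array, and no array could be left out. Signals near background limit EGF, BTC and the dimmer probes of TGFA, EGFR and ERBB3.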
